A study of Mus musculus with 11 samples.

Results

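The 8 genes described here are 6 segments of the gamma-delta T cell receptor (TCR), Trdc, Trdv4, Trgv2, Tcrg-C1, Tcrg-C2 and Tcrg-C4, together with Sox13 and Blk. The list was given by name, with no threshold on a measured value, although earlier results of these data were known when it was drawn up. It makes up 8 of the 54418 genes in the table of counts. RNA-seq was performed on thymocytes of 11 mice of 3 genotypes. There were 4 wild-type (wt) mice, 4 Zmat3-/- mice and 3 mice lacking Zmat3, Puma (gene symbol Bbc3) and p21 (gene symbol Cdkn1a), called TKO. All mice were 8 to 12 weeks old on a C57BL/6-WEHI background. Each sample was the cell suspension of a whole thymus, not a sorted population, so fewer gamma-delta cells and less RNA per such cell cannot be told apart. The labels name separate samples and give no sex, although the study states that its own analysis adjusted for sex.

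T cells carry either an alpha-beta or a gamma-delta receptor, and both lineages arise from the same early progenitors in the thymus. A gamma or delta chain is assembled by joining variable (V), joining (J) and, for delta, diversity (D) segments, and the joined exon is then spliced to a constant (C) gene. The gamma chain locus holds several constant genes, whereas the delta chain has 1 constant gene, Trdc, which lies inside the alpha chain locus and is deleted when a V alpha segment joins a J alpha segment. SOX13 is a SoxD-family transcription factor that marks gamma-delta precursors, and BLK is a Src-family kinase found in B cells and in early gamma-delta thymocytes.

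The gamma segments lie on chromosome 13 and the delta segments on chromosome 14 of the mouse build GRCm38. Tcrg-C1 occupies chr13:19214103-19217024 on the plus strand, Tcrg-C2 chr13:19304649-19307551 on the minus strand and Tcrg-C4 chr13:19344558-19352756 on the plus strand. Trgv2, at chr13:19336573-19337167 on the minus strand, lies 29.0 kb from Tcrg-C2 on the same strand. Trdc occupies chr14:54142851-54148868 and Trdv4 chr14:54074905-54075515, both on the plus strand and 67.3 kb apart. Blk is on the same chromosome as Trdc, at chr14:63372836-63417037 on the minus strand, and Sox13 is at chr1:133382303-133424377 on the minus strand.

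How alike the gamma constant genes are decides how reads can be told apart, so the first coding exons of the 3 constant genes described here were aligned to each other from the reference genome of build GRCm38. These exons are all 330 bases long and aligned without a gap. Tcrg-C2 differed from Tcrg-C1 at 9 bases and was 97.3% identical to it. Tcrg-C4 differed at 59 bases and was 82.1% identical. Over all annotated exons, 51.0% of the 31-base words of Tcrg-C1 and 45.9% of those of Tcrg-C2 also occurred in another gene, chiefly in each other or in Tcrg-C3, while Tcrg-C4 shared 0 of its 955 words. The split of reads between Tcrg-C1 and Tcrg-C2 is therefore uncertain where a fragment lies in shared sequence, whereas Tcrg-C4 had no shared word of that length. Trgv2 shared 20.2% of its words, mostly with Tcrg-V1 and Tcrg-V3. Trdc shared 6.51%, and 4.70% were the opposite-strand gene Trdv5, which overlaps the end of Trdc by 207 bases. The library kit did not mark strand, so reads of Trdc and Trdv5 cannot be told apart there.

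The 11 libraries held 17669715 to 80207003 counts. Values below are CPM, counts per 1000000 counts of the library after TMM scaling, given as mean ± SD over mice. The libraries of wt mice 1 and 2 stood apart from those of wt mice 3 and 4. Correlation of log2 CPM over genes was 0.982 within each of these pairs and as low as 0.894 across them, whereas it was at least 0.971 between any mice of Zmat3-/- or of TKO. The level of Xist, the RNA that coats the inactive X chromosome, also divided the mice, with 501 to 1498 CPM in wt 1 and 2, Zmat3-/- 1 and 2 and TKO 1, and 0.733 to 2.60 CPM in the other 6. Comparisons are therefore also given without wt mice 1 and 2, or by Xist level. Zmat3, the gene deleted in both mutants, was at 9.81 to 27.4 CPM in wt and 5.33 to 8.13 CPM in all mutant mice, and its 2 lowest wt values were those of mice 1 and 2. Bbc3 was at 18.7 ± 1.19 CPM in wt and 13.6 ± 2.02 in TKO, and Cdkn1a at 6.55 ± 3.17 and 3.12 ± 0.743. Cdkn1a also showed the wt split, at 8.15, 10.2, 3.58 and 4.25 CPM in wt mice 1 to 4, against 2.26 to 3.55 in TKO. All deleted genes were thus still counted in the mutants, and the exons these reads came from were not examined here.

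Per length, the constant genes led. In wt mice Tcrg-C2 was highest at 42.4 RPKM (CPM per kilobase of exon), followed by Tcrg-C1 at 34.1, Trdc at 27.6, Tcrg-C4 at 17.0 and Trgv2 at 12.7 RPKM. Blk, at 3.00, and Sox13, at 1.62 RPKM, were lower, and Trdv4 was lowest at 0.344 RPKM. The order by mean over all mice held in each of the 11 mice except between 2 pairs of neighbours: Tcrg-C1 was above Trdc in 9 of 11 mice and Tcrg-C4 above Trgv2 in 8 of 11.

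The delta constant gene Trdc was lower in most mutant mice. It was at 134, 107, 94.9 and 91.1 CPM in wt mice 1 to 4, at 81.6, 90.7, 73.6 and 63.3 CPM in Zmat3-/- mice 1 to 4 and at 61.9, 70.7 and 94.0 CPM in TKO mice 1 to 3. Every Zmat3-/- mouse was below every wt mouse, whereas TKO mouse 3 lay inside the wt range. The group means were 107 ± 19.3 CPM in wt (n = 4), 77.3 ± 11.6 in Zmat3-/- (n = 4) and 75.6 ± 16.6 in TKO (n = 3). The log2 fold change (log2FC) against wt was -0.46 (SE 0.158) in Zmat3-/- and -0.52 (SE 0.197) in TKO, with adjusted p of 0.204 and 0.434 by edgeR.

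Trdv4, a V segment of the delta locus and therefore one of the parts of a joined exon that can be spliced to Trdc, was hardly counted. It had 2 to 7 counts in wt mice, 1 to 11 in Zmat3-/- mice and 3 to 13 in TKO mice. It stayed below the count filter in all 3 comparisons, so 7 of the 8 genes were tested and no fold is given for Trdv4.

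**Figure D1:**
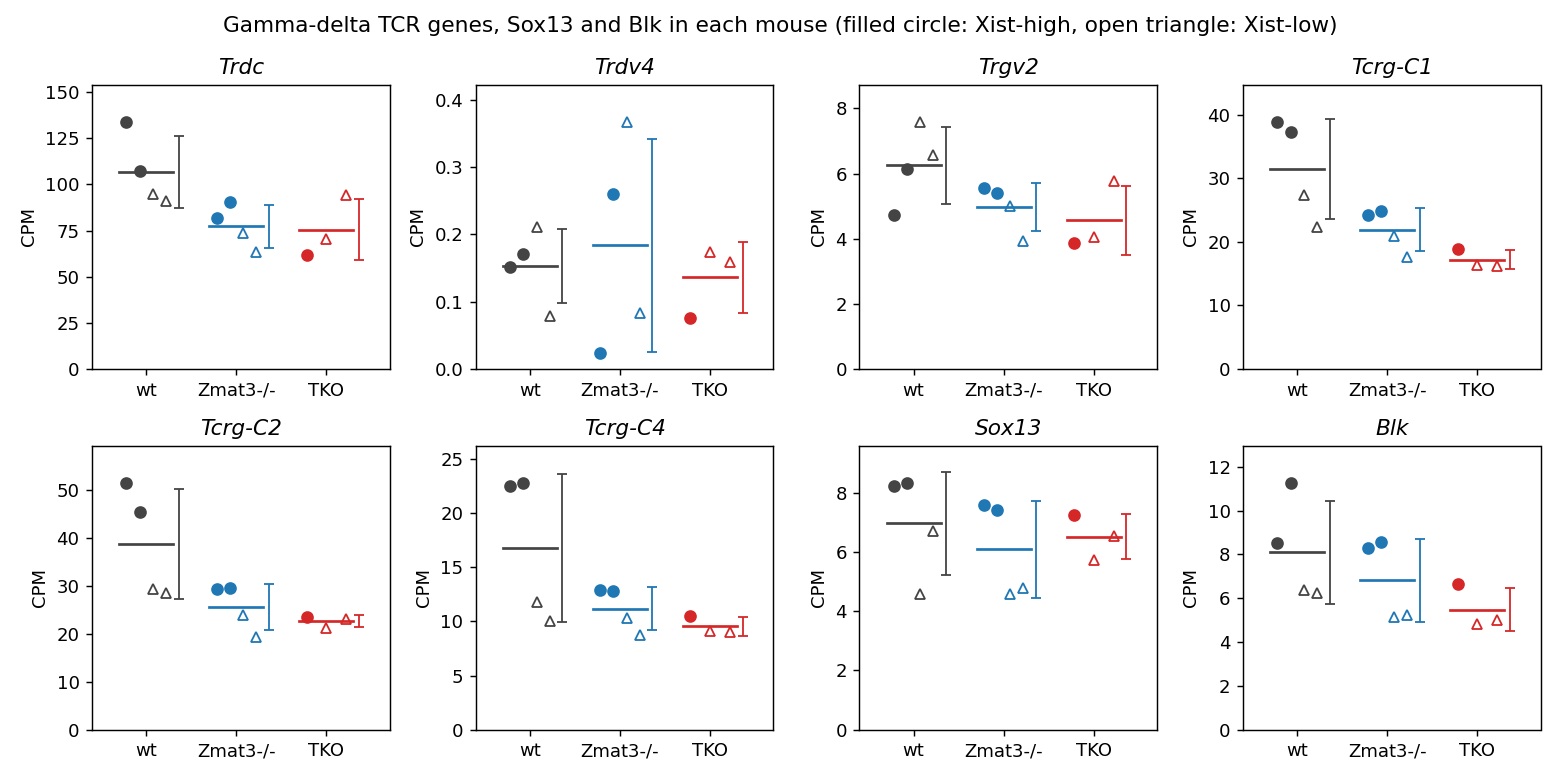
Level of each of the 8 genes in each mouse, in CPM from 0, by genotype. Each symbol is 1 mouse (filled circles, Xist-high; open triangles, Xist-low), the horizontal line is the group mean and the bar is ± 1 SD. Tcrg-C1, Tcrg-C2 and Tcrg-C4 were highest in wt mice 1 and 2, the filled wt circles, and Trdv4 reached at most 0.367 CPM.

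Tcrg-C1, the first constant gene of the gamma locus, had the lowest log2FC of the 7 genes tested when all TKO mice were set against all wt mice. It was at 38.9, 37.3, 27.4 and 22.4 CPM in wt mice 1 to 4, at 24.2, 24.9, 20.9 and 17.6 CPM in the Zmat3-/- mice and at 19.0, 16.4 and 16.3 CPM in the TKO mice. All TKO mice were below all wt mice, and wt mice 1 and 2 were the highest of all. Its log2FC in TKO against wt was -0.89 (SE 0.221), with adjusted p = 0.271 by edgeR. The order of the genes changed with the wt mice used, since Tcrg-C4 was lower without wt mouse 3 (-0.97 against -0.95), without wt mice 3 and 4 (-1.26 against -1.16) and in the Xist-high mice, and Trgv2 was lower without wt mice 1 and 2 (-0.64 against -0.54).

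Tcrg-C2, the constant gene on the opposite strand, was at 51.5, 45.5, 29.3 and 28.6 CPM in wt mice 1 to 4, at 29.5, 29.5, 24.0 and 19.4 CPM in Zmat3-/- and at 23.6, 21.3 and 23.0 CPM in TKO. TKO lay below wt without overlap, and the highest Zmat3-/- mice were just above wt mice 3 and 4. The log2FC in TKO against wt was -0.79 (SE 0.240), with adjusted p = 0.368 by edgeR.

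Tcrg-C4, the constant gene that shares no words with the others, was at 22.5, 22.8, 11.8 and 10 CPM in wt mice 1 to 4. It was at 12.9, 12.8, 10.4 and 8.76 CPM in the Zmat3-/- mice and at 10.5, 9.11 and 8.99 CPM in the TKO mice. The 2 high wt mice had about the same value and stood above all other mice, while wt mice 3 and 4 lay among the mutants. Its log2FC in TKO against wt was -0.83 (SE 0.328), with adjusted p = 0.447 by edgeR. When the counts of Tcrg-C1, Tcrg-C2 and Tcrg-C3 were summed, so that no split between them mattered, the log2FC was -0.84 (SE 0.227, adjusted p = 0.307) in TKO and -0.56 (SE 0.212, adjusted p = 0.246) in Zmat3-/-, both against wt by edgeR.

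Trgv2, a V segment near Tcrg-C2, had another order among the wt mice. Its level was 4.74, 6.14, 7.59 and 6.58 CPM in wt mice 1 to 4, 5.55, 5.39, 5.01 and 3.94 CPM in Zmat3-/- and 3.86, 4.06 and 5.78 CPM in TKO. Here wt mouse 1 was the lowest wt mouse, and the groups overlapped. The log2FC was -0.47 (SE 0.246) in TKO and -0.33 (SE 0.192) in Zmat3-/- against wt, with adjusted p of 0.546 and 0.439 by edgeR.

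Sox13, the SoxD-family factor, was at 8.24, 8.34, 4.59 and 6.69 CPM in wt mice 1 to 4, at 7.58, 7.41, 4.57 and 4.78 CPM in Zmat3-/- and at 7.26, 5.75 and 6.54 CPM in TKO. All groups overlapped, and within each genotype the Xist-high mice were the higher. Its log2FC against wt was -0.11 (SE 0.255) in TKO and -0.19 (SE 0.257) in Zmat3-/-, with adjusted p of 0.869 and 0.724 by edgeR. When 1 mouse was left out it ran from -0.27 to -0.016 in TKO and from -0.36 to -0.078 in Zmat3-/-.

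Blk, the Src-family kinase, was at 8.51, 11.3, 6.36 and 6.22 CPM in wt mice 1 to 4, at 8.28, 8.58, 5.14 and 5.24 CPM in Zmat3-/- and at 6.63, 4.82 and 5.01 CPM in TKO. The groups overlapped and wt mouse 2 was the highest. The log2FC was -0.57 (SE 0.275) in TKO and -0.25 (SE 0.264) in Zmat3-/- against wt, with adjusted p of 0.516 and 0.658 by edgeR. Without wt mouse 2 it was -0.37 (SE 0.261) in TKO and -0.049 (SE 0.256) in Zmat3-/-. BLK is also a B cell kinase, and 8 of 11 B cell markers were highest in that same wt mouse 2. The 11 B cell markers summed to 564 to 1009 CPM over the wt mice, against 545 to 579 for Zmat3-/- and 551 to 634 for TKO mice, and no marker was at 0 in any mouse. Without the marker Ighm the sum was 193 and 281 CPM in wt mice 1 and 2. In Zmat3-/- mice 2 and 4 it was 128 and 145 CPM, where Blk was at 8.58 and 5.24 CPM. In TKO mouse 2, the lowest for Blk, it was 163 CPM. The part of B cells in the level of Blk was not tested.

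Against wt, the question was whether loss of Zmat3 alone, or of Zmat3, Puma and p21 together, goes with another level of these genes. All 7 genes tested were lower in TKO and all 7 were lower in Zmat3-/-, and both comparisons use the same 4 wt mice. The median log2FC of the 7 genes was -0.57 in TKO and -0.46 in Zmat3-/-, beside medians of -0.037 and -0.026 over all genes tested. By edgeR's quasi-likelihood test with Benjamini-Hochberg adjustment over all genes, 0 of 7 had adjusted p under 0.05 in TKO, where 0.294% of 13260 genes did. In Zmat3-/- it was also 0 of 7, where 0.763% of 13494 genes did. A log2FC beyond 1.5 either way was further required for a call, which 0.241% and 0.319% of all genes met and none of the 7. At an unadjusted p under 0.05, 4 of 7 were lower in TKO (Tcrg-C1, Tcrg-C2, Tcrg-C4 and Trdc), beside 6.18% of all genes. The same count was 3 of 7 in Zmat3-/- (Trdc, Tcrg-C1 and Tcrg-C2), beside 8.92% of all genes. These are not counts of separate results. Over the 11 mice log2 CPM of Tcrg-C1, Tcrg-C2 and Tcrg-C4 correlated with each other at r = 0.952 to 0.966, and Trdc with Tcrg-C2 at 0.876. With DESeq2 1 of 7 had adjusted p under 0.05 in TKO, namely Tcrg-C1 at 0.0177, beside 2.87% of all genes, and 0 of 7 in Zmat3-/-, beside 8.04%. With 1 surrogate variable in the edgeR fit it was 3 of 7 in TKO (Tcrg-C1, Tcrg-C2 and Tcrg-C4) and 4 of 7 in Zmat3-/- (these and Trdc), beside 14% and 37.7% of all genes. With Xist level in the fit it was 0 of 7 in both, beside 0.392% and 1.31%. Every TKO mouse was below every wt mouse for 2 of 7 genes, where 7.02% of all genes were, and every Zmat3-/- mouse for 1 of 7, where 6.91% were. With mice of the same number blocked, the genes called in Zmat3-/- against wt fell from 43 to 8 and those with adjusted p under 0.05 from 103 to 12 (0.0889%), with 0 of the 7 among them.

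The constant genes in Zmat3-/- against wt had log2FC of -0.52 (SE 0.199) for Tcrg-C1, -0.60 (SE 0.230) for Tcrg-C2 and -0.58 (SE 0.292) for Tcrg-C4, with adjusted p of 0.250, 0.257 and 0.367 by edgeR. The mutants were also compared with each other. In TKO against Zmat3-/-, 6 of 7 genes were lower, with a median of -0.20 beside -0.0083 over all genes, and 0 of 7 had adjusted p under 0.05, where 0.221% of 13124 genes did. Tcrg-C1, at -0.37 (SE 0.135), was the 1 gene lower at an unadjusted p under 0.05, as 2.23% of all genes were (adjusted p = 0.983 by edgeR). For the other 6 the adjusted p was 0.983 to 0.985, and their log2FC ran from -0.33 (SE 0.235) for Blk to 0.080 (SE 0.217) for Sox13.

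**Figure D2:**
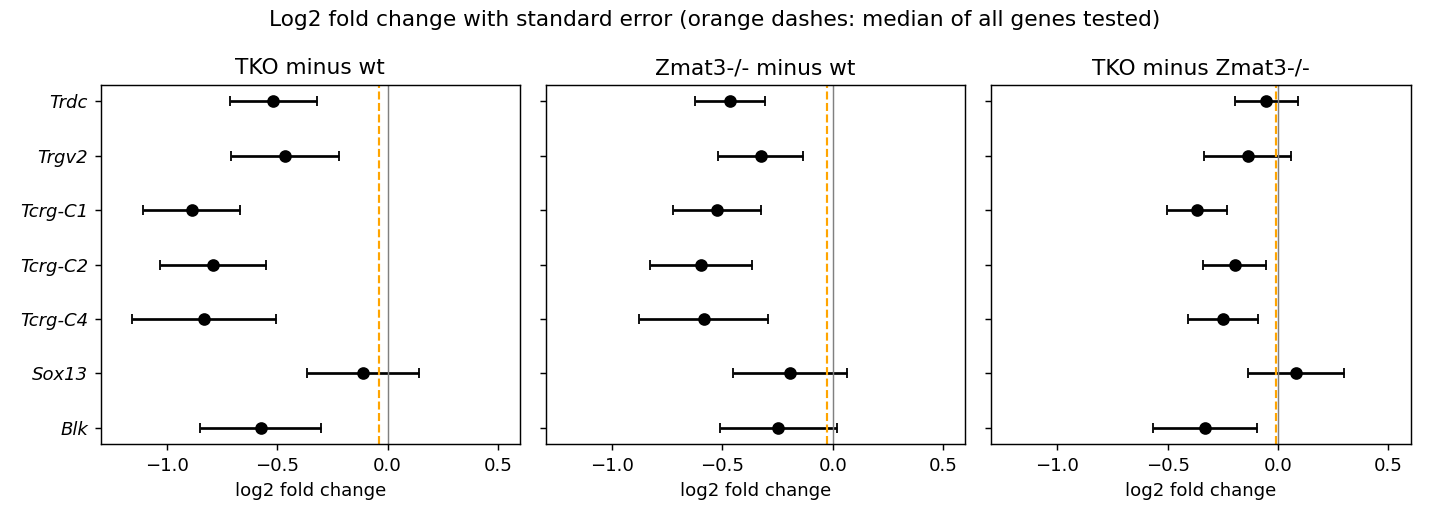
Log2 fold change (x axis) of the 7 genes tested (y axis) in the 3 comparisons, by edgeR. Points are estimates, bars are ± 1 SE and the dashed line is the median of all genes tested. All 7 points lie below 0 against wt, from -0.89 for Tcrg-C1 to -0.11 for Sox13 in TKO, and 6 of 7 lie below 0 between the mutants.

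The size of these differences followed which wt mice were used. Without wt mice 1 and 2, the log2FC of Tcrg-C1 in TKO was -0.54 (SE 0.140) rather than -0.89, with adjusted p = 0.0547 by edgeR. Tcrg-C2 was then at -0.36 (SE 0.104, adjusted p = 0.0688 by edgeR), Trdc at -0.31 (SE 0.150) and Tcrg-C4 at -0.20 (SE 0.171). Trgv2 moved the other way, to -0.64 (SE 0.239), and Sox13 changed sign, to 0.20 (SE 0.241). Blk was at -0.20 (SE 0.229). In Zmat3-/- against the same wt mice 3 and 4, Trgv2 was at -0.49 (SE 0.183, adjusted p = 0.0621 by edgeR) and Trdc at -0.26 (SE 0.115, adjusted p = 0.112 by edgeR). There Tcrg-C1 and Tcrg-C2 were both at -0.17 (SE 0.143 and 0.153) and Tcrg-C4 was at 0.050 (SE 0.171), Sox13 at 0.12 (SE 0.263) and Blk at 0.13 (SE 0.240). These wt mice are Xist-low, whereas each mutant group mixes Xist-high and Xist-low mice. In that fit 0 of 7 genes had adjusted p under 0.05 in either comparison, whereas 8.15% of all genes in TKO and 33% in Zmat3-/- did. With wt mice 1 and 2, the highest for the constant genes, as the only wt mice, 5 of 7 in TKO and 4 of 7 in Zmat3-/- had adjusted p under 0.05, among 43.6% and 56.1% of all genes. Within the Xist-low mice alone the counts were 0 of 7 in TKO and 4 of 7 in Zmat3-/- (Trdc, Trgv2, Tcrg-C1 and Tcrg-C2), among 3.02% and 28.2% of all genes. In Zmat3-/- the log2FC there was -0.37 (SE 0.122) for Tcrg-C1, -0.41 (SE 0.107) for Tcrg-C2 and -0.19 (SE 0.159) for Tcrg-C4. Sox13 and Blk were both at -0.28 (SE 0.244 and 0.196). In TKO Tcrg-C1 was at -0.63 (SE 0.140), Tcrg-C2 at -0.40 (SE 0.105) and Tcrg-C4 at -0.29 (SE 0.176). Blk was then at -0.38 (SE 0.220) and Sox13 at 0.10 (SE 0.273). Within the Xist-high mice alone, whose wt mice are again 1 and 2, 4 of 7 passed in Zmat3-/- (Trdc, Tcrg-C1, Tcrg-C2 and Tcrg-C4), among 42.1% of all genes. TKO has a single Xist-high mouse, so no call is given for it. The log2FC of Trdc there was -0.97 against wt and -0.47 against Zmat3-/-.

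**Figure D3:**
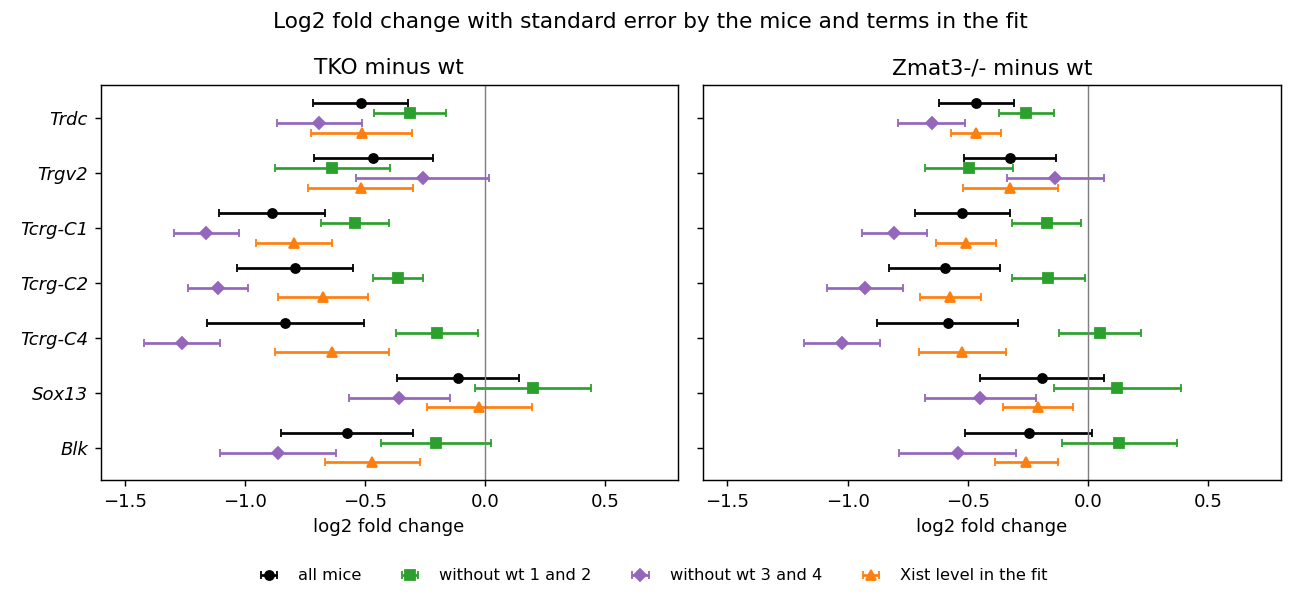
Log2 fold change against wt (x axis, bars ± 1 SE) of the 7 genes tested, with all wt mice, without wt mice 1 and 2, without wt mice 3 and 4, and with Xist level as a term in the fit. Tcrg-C4 in TKO went from -0.83 with all mice to -0.20 without wt mice 1 and 2 and -1.26 without wt mice 3 and 4, whereas Trgv2 moved in the opposite direction.

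Tcrg-C2 made up 42.1% to 47.5% of the counts of the 4 gamma constant genes in the 11 mice, Tcrg-C1 33.6% to 39.9%, Tcrg-C4 16.3% to 21.5% and Tcrg-C3 0.106% to 0.818%. Together they summed to 114, 106, 68.7 and 61.2 CPM in wt mice 1 to 4, to 46.1 to 67.4 CPM in Zmat3-/- and to 46.9 to 53.3 CPM in TKO. The highest share of Tcrg-C4 was that of wt mouse 2.

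Set against Trac, the alpha chain constant gene, the gamma constant genes no longer differed in this way among wt mice. The 4 gamma constant genes had 19.1, 18.8, 20.1 and 18.9 counts per 100 Trac counts in wt mice 1 to 4, since Trac was also higher in mice 1 and 2, at 596 and 563 CPM against 342 and 324 CPM. In Zmat3-/- the ratio was 20.4, 19.0, 17.0 and 12.2, which overlapped wt, and in TKO 14.9, 12.6 and 12.3, which did not. This ratio was chosen after the data were seen and carries no test. Trdc had 22.5, 19.1, 27.8 and 28.1 counts per 100 Trac counts in wt mice 1 to 4, so that here mice 1 and 2 were the lower. The range was 16.7 to 25.6 for Zmat3-/- and 17.3 to 23.9 for TKO, and all groups overlapped.

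The V segments did not share the rise of the constant genes in wt mice 1 and 2. Gamma V segments had 6.53 and 9.45 counts per 100 gamma constant counts in those mice, and 13.97 to 20.9 in the other 9 mice. For Trgv2 against Tcrg-C2 alone the ratio was 9.19 and 13.5 in wt mice 1 and 2 and 25.9 and 23.0 in wt mice 3 and 4. Reads that cross from V to C were not separated here, and the source of this difference was not tested.

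**Figure D4:**
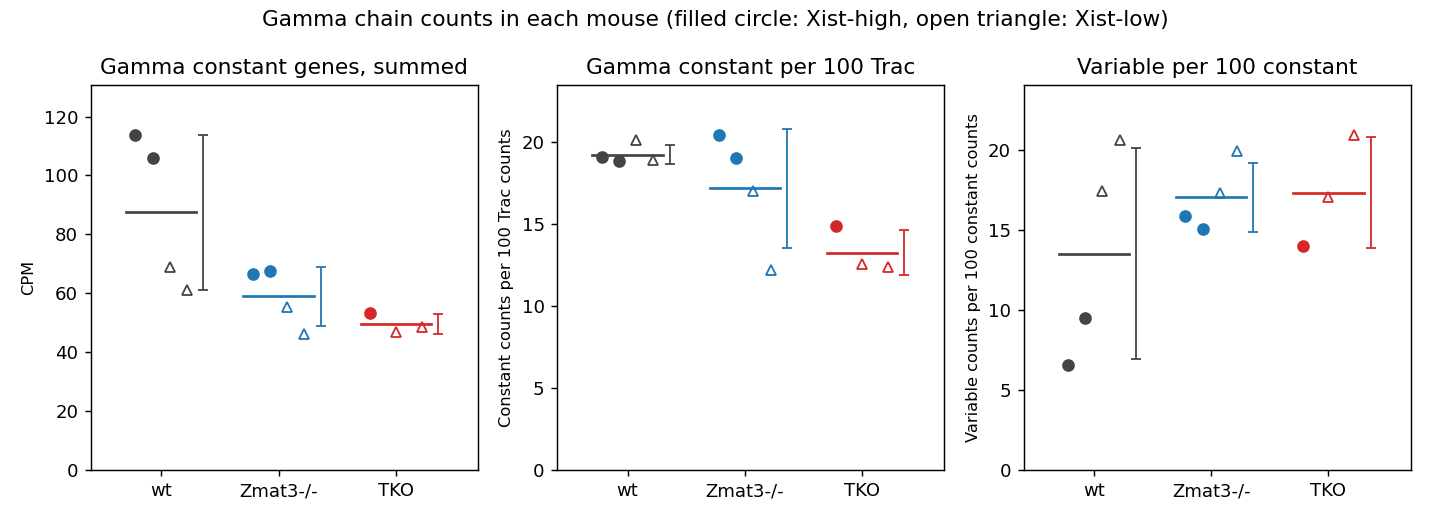
Summed level of the 4 gamma constant genes in CPM (left), their counts per 100 Trac counts (middle) and gamma V counts per 100 gamma constant counts (right) in each mouse, by genotype. Lines are means and bars ± 1 SD. The 2 filled wt circles stand highest on the left at 106 and 114 CPM, level with the other wt mice in the middle and lowest on the right at 6.53 and 9.45.

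Of the 20 other gamma and delta segments in the table, 8 had 0 counts in every mouse, all of them J or D segments, which are far shorter than a read. A further 7 were counted but stayed below the filter, with at most 25 counts in any mouse. The remaining 5 were tested in at least 1 comparison, and 0 of 5 had adjusted p under 0.05 by edgeR. Tcrg-V4, a V segment upstream of Tcrg-C1, was at 1.96 to 4.96 CPM in wt, and its log2FC was -0.12 (SE 0.358) in TKO and 0.11 (SE 0.303) in Zmat3-/-. The delta V segments Trdv1 and Trdv2-2 had log2FC of -0.18 (SE 0.374) and -0.13 (SE 0.311) in TKO against wt. Trdv5, the inverted segment beyond Trdc, was at 0.066 (SE 0.287) in TKO and 0.16 (SE 0.208) in Zmat3-/-. Tcrg-V1, tested only in Zmat3-/- against wt, was at 0.50 (SE 0.356). None of these differed by as much as 2 of its SE.

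**Figure D5:**
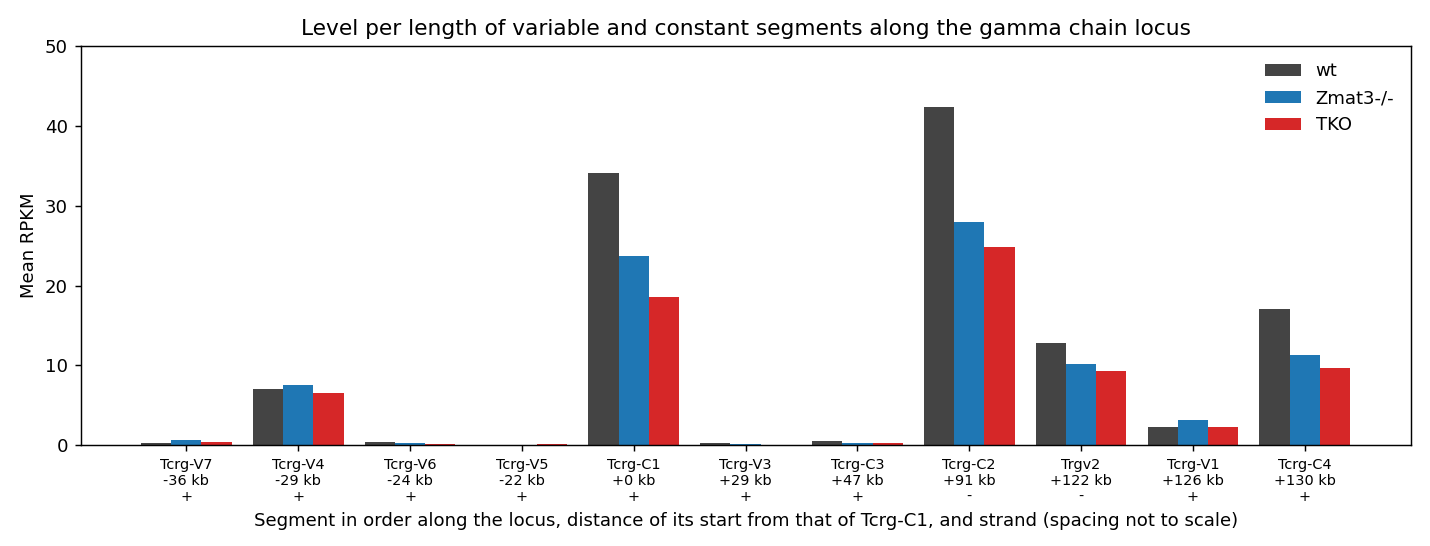
Mean RPKM per genotype (bars, from 0) of the V and C segments in their order along the gamma locus, with the distance of each start from that of Tcrg-C1 and the strand under each name. Tcrg-C2 and Tcrg-C1 were highest at 42.4 and 34.1 RPKM in wt, and Tcrg-C3, Tcrg-V3, Tcrg-V5, Tcrg-V6 and Tcrg-V7 were near 0.

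Some V segments serve both the alpha and the delta chain, and 9 of these are in the table. In each comparison with wt 8 were tested, and 7 of these did not have adjusted p under 0.05 by edgeR. The other gene, Trav14d-3-dv8, is named because of its value. It had 15, 20, 10 and 8 counts in wt mice, 65, 57, 47 and 45 in Zmat3-/- mice and 105, 29 and 291 in TKO mice. As CPM all mutant mice were above all wt mice while the mutants overlapped each other, from 0.315 to 0.489 for wt mice, 1.53 to 1.89 for Zmat3-/- and 1.68 to 3.56 for TKO. Brought to the depth of the shallowest library, all wt mice were below the filter minimum of 20 counts, so it was tested only through the mutant mice, where it is high, and its values are given as a description with no test. Trav16d-dv11 had 0 counts in all 4 wt mice, 8 to 16 in Zmat3-/- and 6 to 69 in TKO, and stayed below the filter. These genes share 65.0% and 70.9% of their 31-base words with other genes, chiefly their Trav14 and Trav16 family members, so reads may be assigned among near-identical copies.

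Xist level divided several of the 8 genes within each genotype. For 5 of the 7 tested, Tcrg-C1, Tcrg-C2, Tcrg-C4, Sox13 and Blk, every Xist-high mouse was above every Xist-low mouse of its genotype in all 3 genotypes, where 3.91% of 13543 genes were. The difference was 0.62 (SE 0.117) on the log2 scale for Blk, 0.61 (SE 0.142) for Tcrg-C4 and 0.52 (SE 0.136) for Sox13 in a fit of genotype and Xist class over the 11 mice. It was 0.47 (SE 0.113) for Tcrg-C2 and 0.42 (SE 0.0967) for Tcrg-C1. Tcrg-C1, Tcrg-C2 and Tcrg-C4 followed each other closely over the mice, so they are not separate results. All 5 had adjusted p = 0.127 by edgeR, and 1 of 13522 genes (0.0074%) passed 0.05 in that fit. Trdc, at 0.17 (SE 0.142), was higher in the Xist-high mice of wt and of Zmat3-/- without overlap, but in TKO the single Xist-high mouse was the lowest, at 61.9 CPM. Trgv2, at -0.13 (SE 0.179), was lower in the Xist-high mice of wt and TKO and higher in those of Zmat3-/-. Among the other delta segments, Trdv1 was lower in the Xist-high mice of all 3 genotypes, as 7.77% of all genes were, at -0.65 (SE 0.179, adjusted p = 0.127 by edgeR). In wt the Xist-high mice are also the mice that stand apart, so these cannot be told apart there.

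Genes known from gamma-delta T cell development or function did not move together. Of 30 such genes, 25 were tested in TKO against wt, of which 15 were higher and 10 lower with a median log2FC of 0.15, and 26 in Zmat3-/- against wt, with 13 in each direction and a median of -0.0046. Between the mutants 26 were tested, with a median of 0.11. None had adjusted p under 0.05 by edgeR in any comparison, and at an unadjusted p under 0.05 there were 4 of 25, 5 of 26 and 1 of 26, beside 10.3%, 16.1% and 4.49% of all genes. The transcription factor gene Tcf7, the most abundant, had a log2FC of 0.29 (SE 0.184) in TKO and 0.14 (SE 0.136) in Zmat3-/-. Sox4, which encodes a SoxC factor, was at 0.35 (SE 0.191) and 0.16 (SE 0.152). Cd27, a costimulatory receptor gene, was at -0.37 (SE 0.135) and -0.42 (SE 0.104), with every mutant mouse below every wt mouse. That held for 3 of 25 genes of the list in TKO and 3 of 26 in Zmat3-/-, beside 7.02% and 6.91% of all genes. Every mutant mouse was above every wt mouse for 3 of 25 and 1 of 26, beside 6.78% and 7.04%.

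Scavenger receptor genes of gamma-delta T cells, Cd163l1 (SCART1) and 5830411N06Rik (SCART2), belong to this list and were named after their values were seen. They had the lowest log2FC of the list in both comparisons with wt, so they do not stand for the other genes in it. Cd163l1 was at 10.9, 14.9, 10.2 and 10.8 CPM in wt mice 1 to 4, at 7.88, 8.38, 4.57 and 3.69 CPM across the Zmat3-/- mice and at 6.75, 4.70 and 4.29 CPM in TKO. 5830411N06Rik was at 24.6, 28.9, 25.1 and 26.5 CPM in wt, at 16.7, 22.7, 13.8 and 10.98 CPM across Zmat3-/- and at 13.5, 13.4 and 16.0 CPM in TKO. For both, all mutant mice were below all wt mice, where 7.02% of all genes were in TKO and 6.91% in Zmat3-/-. For these genes the mean of wt mice 1 and 2 was 1.23 and 1.04 times that of wt mice 3 and 4. The same ratio was 1.53, 1.68 and 2.08 for Tcrg-C1, Tcrg-C2 and Tcrg-C4. The log2FC of Cd163l1 was -1.17 (SE 0.244, adjusted p = 0.170 by edgeR) in TKO and -0.92 (SE 0.282, adjusted p = 0.163 by edgeR) in Zmat3-/-. That of 5830411N06Rik was -0.89 (SE 0.134, adjusted p = 0.0588 by edgeR) in TKO and -0.71 (SE 0.208, adjusted p = 0.152 by edgeR) in Zmat3-/-. Neither passed the threshold.

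The alpha-beta receptor and CD3 genes showed the wt split as well. They summed to 3906 to 7609 CPM over the wt mice, 4595 to 4753 over Zmat3-/- and 4223 to 4761 over TKO mice. Of 8 genes, 7 were lower in TKO and 7 in Zmat3-/-, with medians of -0.33 and -0.32, and none passed. The beta chain constant genes Trbc2 and Trbc1 had log2FC of -0.36 (SE 0.352) and -0.18 (SE 0.297) in TKO against wt, Cd3g -0.39 (SE 0.235) and Cd247, the CD3 zeta chain gene, 0.074 (SE 0.164). The difference between these and the gamma constant genes was not tested.

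Early double-negative genes, which mark the stage before the lineages part, numbered 12, and all were tested with none past the threshold. Their median log2FC was 0.20 in TKO and 0.098 in Zmat3-/-. Notch1 was at 112, 99.2, 268 and 256 CPM in wt mice 1 to 4, so wt mice 1 and 2 were low for this gene while high for the constant genes. Notch3 followed with 29.6, 27.8, 63.7 and 69.2 CPM. Il2ra and Dtx1 had log2FC of -0.12 (SE 0.165) and 0.034 (SE 0.258) in TKO. Of the 10 SoxD and Src-family relatives of Sox13 and Blk, 8 were tested with none past the threshold, and Sox5 and Sox6 stayed below the filter. In TKO against wt 6 of the 8 were higher, with a median log2FC of 0.16 and values from -0.20 to 0.90. In Zmat3-/- against wt 5 of the 8 were higher, with a median of 0.13. Lck, the main Src-family kinase of thymocytes, was at -0.16 (SE 0.218) in TKO, Csk, which restrains these kinases, at 0.12 (SE 0.154), Fyn at 0.075 (SE 0.128) and Fgr at -0.20 (SE 0.174).

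Markers of the sample itself were present throughout. Of 11 thymocyte markers none was at 0, with Rag1 at 3553 ± 1928, Cd8a at 1938 ± 91.7, Trbc2 at 1981 ± 865 and Dntt at 1687 ± 242 CPM in wt. None of the 11 thymocyte, 11 B cell, 3 NK cell, 8 myeloid, 5 erythroid and 6 stromal markers tested in TKO against wt had adjusted p under 0.05 by edgeR, and the same held in the other 2 comparisons. Summed levels in wt, Zmat3-/- and TKO were 20.1 to 42.4, 24.3 to 31.4 and 22.2 to 32.5 CPM for NK cells. They were 143 to 245, 186 to 252 and 114 to 286 CPM for myeloid cells, led by Lyz2, Csf1r, Cd68 and Adgre1. Erythroid genes, led by Hbb-bs, summed to 866 to 8693 CPM in wt, and stromal genes, led by Krt8, to 27.3 to 120 CPM.

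The genes whose levels followed these genes most closely over the 11 mice were found among 12956 genes by Pearson correlation of log2 CPM. For Trdc they were Nrm (r = 0.979), Kif22 (0.974), Cdc6 (0.970), Mxd3 (0.968) and Srsf2 (0.967), and no other TCR segment was among them. For Sox13 they were Smyd2 (0.931), Cptp (0.894), Got1 (0.891), Ctps (0.888) and Hoxa7 (0.882). For Blk they were Irak2 (0.939), Lyrm1 (0.912), Bloc1s6 (0.907), Dusp22 (0.895) and Fam185a (0.895). The highest among so many genes are high by selection, and the mice share genotype and the wt split, so these values are a description. Among the 8 genes, Trdc followed Tcrg-C2 (r = 0.876) more closely than Trgv2 (r = 0.576).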

How the data were processed

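RNA was extracted from thymus cell suspensions and sequenced as paired reads on an unstranded library kit. Per the labels and the study's methods, the authors quantified reads with Salmon in nf-core/rnaseq against GRCm38.p6 with GENCODE M25 annotation. They deposited estimated counts per gene and mouse, all whole numbers (598598 of 598598), and rounding changed none. Estimated counts let Salmon divide reads among near-identical genes such as Tcrg-C1, Tcrg-C2 and Tcrg-C3.

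Gene symbols were matched by Ensembl ID to GENCODE M21 names (54166 of 54418 genes matched), and positions and sequences are from that annotation and GRCm38. Genes were kept when counts brought to the depth of the shallowest library reached 20 in enough mice to fill the smaller group, and Xist, chromosome Y, rRNA and immunoglobulin pseudogenes were left out. Each pair of genotypes was fitted by itself in edgeR 4.0.16 (R 4.3.3; TMM, quasi-likelihood F-test, two-sided), with Benjamini-Hochberg adjustment over all genes tested. A call required adjusted p under 0.05 and an absolute log2FC above 1.5. The study instead used DESeq2, adjusted for sex and calculated surrogate variables, and the main fits here leave out both terms. The SE was obtained as the size of the log2FC over the root of its F statistic. The test was checked on simulated data. RPKM is CPM per kilobase of exon union, and log2 CPM used a prior count of 2. Words of 31 bases on both strands were compared among all annotated exons. Libraries held 17669715 to 80207003 counts, so 3 counts equal 0.0374 to 0.170 CPM. Alternatives were DESeq2 1.42.0, other scaling and filters, a joint fit, a replicate block, Xist level, 1 surrogate variable (sva 3.50.0), and leaving out each mouse. Fits without wt mice 1 and 2 or 3 and 4, and by Xist class, were chosen after seeing the data.

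The 8 genes and the gene lists were chosen with earlier results of these data known. All 8 were named, as were other gamma or delta segments that passed the filter, the 4 genes of each list with the highest mean CPM plus any with adjusted p under 0.05, and the 5 genes most correlated with Trdc, Sox13 and Blk. Some items that this rule or the alignment would show are not reported here. Replicates are mice by their labels, and p-values measure the spread between them. Same-numbered wt and Zmat3-/- mice deviated together from their group means (correlations of 0.337, 0.127, 0.257 and 0.301). However, Zmat3-/- mouse 1 correlated best with wt mouse 2, and Zmat3-/- mouse 2 with wt mouse 1. Numbers 1 and 2 are the Xist-high mice of both genotypes, so pairing by number and shared Xist level cannot be told apart. The numbers were taken only as possible pairs for the block, from the data and not the labels.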

Additional observations from a re-analysis of the deposited data

Results flagged for a closer look

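In wt and Zmat3-/- mice, the difference between genotypes was compared between Xist-high and Xist-low mice by an interaction term in edgeR. Of the 7 genes tested, Tcrg-C4 passed the threshold, with the log2 difference between Zmat3-/- and wt more negative by -0.632 (SE 0.191, adjusted p = 0.0227) in the Xist-high mice, which were Zmat3-/- and wt mice 1 and 2. This term was past the threshold for 5965 of 13494 genes, and in wt the Xist-high mice are the libraries that stand apart from the rest, so Xist class and that separation cannot be told apart. Tcrg-C1 was at -0.26 (SE 0.178, adjusted p = 0.253), Tcrg-C2 at -0.30 (SE 0.165, adjusted p = 0.161) and Trgv2 at 0.66 (SE 0.301, adjusted p = 0.0997). No single mouse lay far from the others of its group by Dixon's criterion for any of the 16 groups of 4 mice (8 genes in wt and Zmat3-/-).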

How the results depend on the processing

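A total of 0 of the 7 genes met both the adjusted p and the log2FC threshold under every alternative run, while counts over all genes depended strongly on the wt mice. Counts are given as genes called, then genes with adjusted p under 0.05. In TKO against wt the main counts were 32 and 39. They were 103 and 381 with DESeq2, where 1 of the 7 passed the adjusted p, 51 and 61 without the filter, 70 and 212 with all genotypes in 1 fit, and 155 and 1855 with 1 surrogate variable (3 of 7). Chosen after the data were seen, they were 244 and 1098 without wt mice 1 and 2 (0 of 7), 672 and 5829 without wt mice 3 and 4 (5 of 7), 142 and 400 in Xist-low mice (0 of 7), and 731 and 3089 in Xist-high mice, where TKO is a single mouse assumed to vary like wt. In Zmat3-/- against wt the main counts were 43 and 103. They were 123 and 1085 with DESeq2, 71 and 231 with all genotypes in 1 fit, 215 and 5086 with 1 surrogate variable (4 of 7), 34 and 55 without the filter, and 54 and 177 with Xist level. They were 444 and 4652 without wt mice 1 and 2, 733 and 7968 without wt mice 3 and 4 (4 of 7), 363 and 3881 in Xist-low mice (4 of 7), and 608 and 6004 in Xist-high mice (4 of 7). In TKO against Zmat3-/- the main counts were 16 and 29. They were 19 and 73 with DESeq2, 45 and 90 without the filter, 14 and 16 with all genotypes in 1 fit, 12 and 14 in Xist-low mice, and 59 and 377 in Xist-high mice, again with a single TKO mouse.

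With mice of the same number blocked, the replicate block gave 16 and 16 in TKO against wt, 8 and 12 in Zmat3-/- against wt and 16 and 21 in TKO against Zmat3-/-, and 0 of 7 passed in each. The block thus changed no call among the 7 genes, while it lowered the counts over all genes in both comparisons with wt. Same-numbered deviations correlated at 0.073, 0.301 and 0.406 in TKO against wt and at 0.195, 0.011 and 0.173 in TKO against Zmat3-/-, where the samples may share only a number, and not every mouse correlated best with its own number. Leaving out 1 mouse at a time gave 15 to 34 and 16 to 40 in TKO against wt, 12 to 47 and 17 to 105 in Zmat3-/- against wt and 14 to 18 and 20 to 34 in TKO against Zmat3-/-, each with 0 of 7.

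A few log2FC changed sign, none past the threshold. Sox13 in TKO against wt was 0.017 with 1 surrogate variable, 0.20 without wt mice 1 and 2 and 0.10 in Xist-low mice. In Zmat3-/- against wt without wt mice 1 and 2, Tcrg-C4 was 0.050, Sox13 0.12 and Blk 0.13, and Trgv2 was 0.013 in Xist-high mice. In Xist-low mice alone, against the same wt mice 3 and 4, Tcrg-C4 was -0.19, Sox13 -0.28 and Blk -0.28. Between the mutants, Trdc ran from -0.22 to 0.062 when 1 mouse was left out (0.032 without Zmat3-/- 2, 0.062 without TKO 1, 0.00030 without TKO 2) and was 0.24 in Xist-low mice, where Trgv2 was 0.12 and Tcrg-C2 0.0044. Sox13 ran from -0.029 to 0.22 when 1 mouse was left out (-0.029 without Zmat3-/- 3, -0.011 without Zmat3-/- 4, -0.020 without TKO 1) and was -0.045 in Xist-high mice. The cause was not tested. Of the other single-gene fits, 331 of the alternatives set at the start kept their side of the threshold and 8 moved past it. Of those chosen after the data were seen, 38 kept it and 22 moved past it, of which 5 rest on a single Xist-high TKO mouse and are given no call. Trdv4, with 1 to 13 counts a mouse, was below the filter on low counts in each main comparison and was not tested there.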
